A study of Mus musculus with 6 samples.

Results

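The 36 genes described here encode the machinery that licenses and copies DNA and the factors that drive cells from G1 into S phase. They were chosen by symbol from a list of replication and G1/S genes, and all 36 were found among the 31017 gene symbols of the count table. The libraries, 3 control and 3 ETV4 KO, were made from the poly(A) RNA of 4T1, a cell line from a mouse breast tumour. Both groups had been nucleofected with Cas9, the control cells with control guide RNAs and the ETV4 KO cells with guides for Etv4, which encodes an ETS transcription factor. Cells of both groups were embedded in droplets of collagen I and cultured in 3D, and collagenase released them for RNA extraction. The labels do not say whether the ETV4 KO cells, which carry the same code in all 3 libraries, are 1 clone or a pool, nor whether the libraries of a group were separate cultures. The spread behind every p-value is thus that between libraries and may be technical.

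DNA replication starts at origins that are loaded in G1 with the MCM helicase by the origin recognition complex, CDC6 and CDT1. In S phase the helicase is switched on by binding CDC45 and the GINS complex, and the polymerases then copy the strands with the sliding clamp PCNA and nucleotides made by ribonucleotide reductase and thymidylate synthase. Many of these genes are transcribed by E2F factors once cyclin-dependent kinases have inactivated the retinoblastoma protein, so their mRNAs are widely used as a readout of proliferating tumour cells.

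In ETV4 KO most of these genes were higher by a small amount. By edgeR's quasi-likelihood test, with Benjamini-Hochberg adjustment over 12076 genes and a threshold of 0.05, 26 of the 36 rose, 8 fell and 2 did not pass. Such calls were common in these libraries: the same test called 71.1% of all tested genes, 35.0% as higher and 36% as lower in ETV4 KO. Among the genes at least as abundant as the lowest of the 36 it called 77.4%, 41.3% as higher and 36.1% as lower. Of the 36 themselves 94.4% were called, 72.2% as higher and 22.2% as lower. The median log2 fold change of the 36 genes was 0.23, and that of all tested genes was -0.004. The median absolute log2 fold change was 0.27, against 0.29 for all tested genes. Only 7801 of the 12076 tested genes were at least as abundant as the lowest of the 36. Neither this comparison of size nor those that follow were made at matched abundance. Changes of at least 1.5-fold were measured for 3 of the 36 genes, or for 21.7% of all tested genes, and changes of at least 2-fold for 0 of the 36 and for 9.89% of all tested genes. In a test of the change against 1.5-fold, which 13.9% of all tested genes passed, only Pola1 and Rrm2 passed among the 36. Fold changes also differed between chromosomes, so the calls of each group below are given a second time, relative to the neighbourhood. There the median log2 fold change of the expressed genes around each gene (its local median) was taken out. In that second fit 30.5% of all tested genes were called higher and 34.2% lower. In bulk RNA a change in the share of cells in S phase and a change in the RNA per cell cannot be told apart.

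Levels are given as CPM, the counts of a gene scaled to the size of its library. Library depth was 22355015 to 29042569 counts, and each of the 36 genes had between 340 and 15623 counts per library. Pearson's r of the log2 values across genes was 0.9978 to 0.9981 within groups and 0.9688 to 0.9699 between them. The targeted gene Etv4 was lower, at 134, 135 and 133 CPM in the controls and 87.4, 89.5 and 92.3 CPM in ETV4 KO, with -0.58 on the log2 scale (SE 0.036, edgeR adjusted p = 1.03e-14) and -0.11 relative to its neighbours on the chromosome. Gene-level counts say nothing of the protein. The epithelial markers Epcam, Krt8, Krt18, Cdh1 and Krt7 were all detected, the first 4 fell, and their summed level was 5359 to 5513 CPM in the controls and 3994 to 4190 CPM in ETV4 KO. Of 17 fibroblast, immune and endothelial markers only Pdgfra and Cd68 passed the filter on low counts. Summed levels were 9.87 to 11.7 CPM in controls and 12.9 to 14.5 CPM in ETV4 KO for fibroblast markers, 9.45 to 9.99 and 9.41 to 11.3 CPM for immune markers, and at most 0.604 CPM for endothelial markers. Lum, Thy1, Cd3e, Lyz2, Adgre1 and Emcn had 0 counts in all 6 libraries. The part of these markers in the results was not tested.

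**Figure D1:**
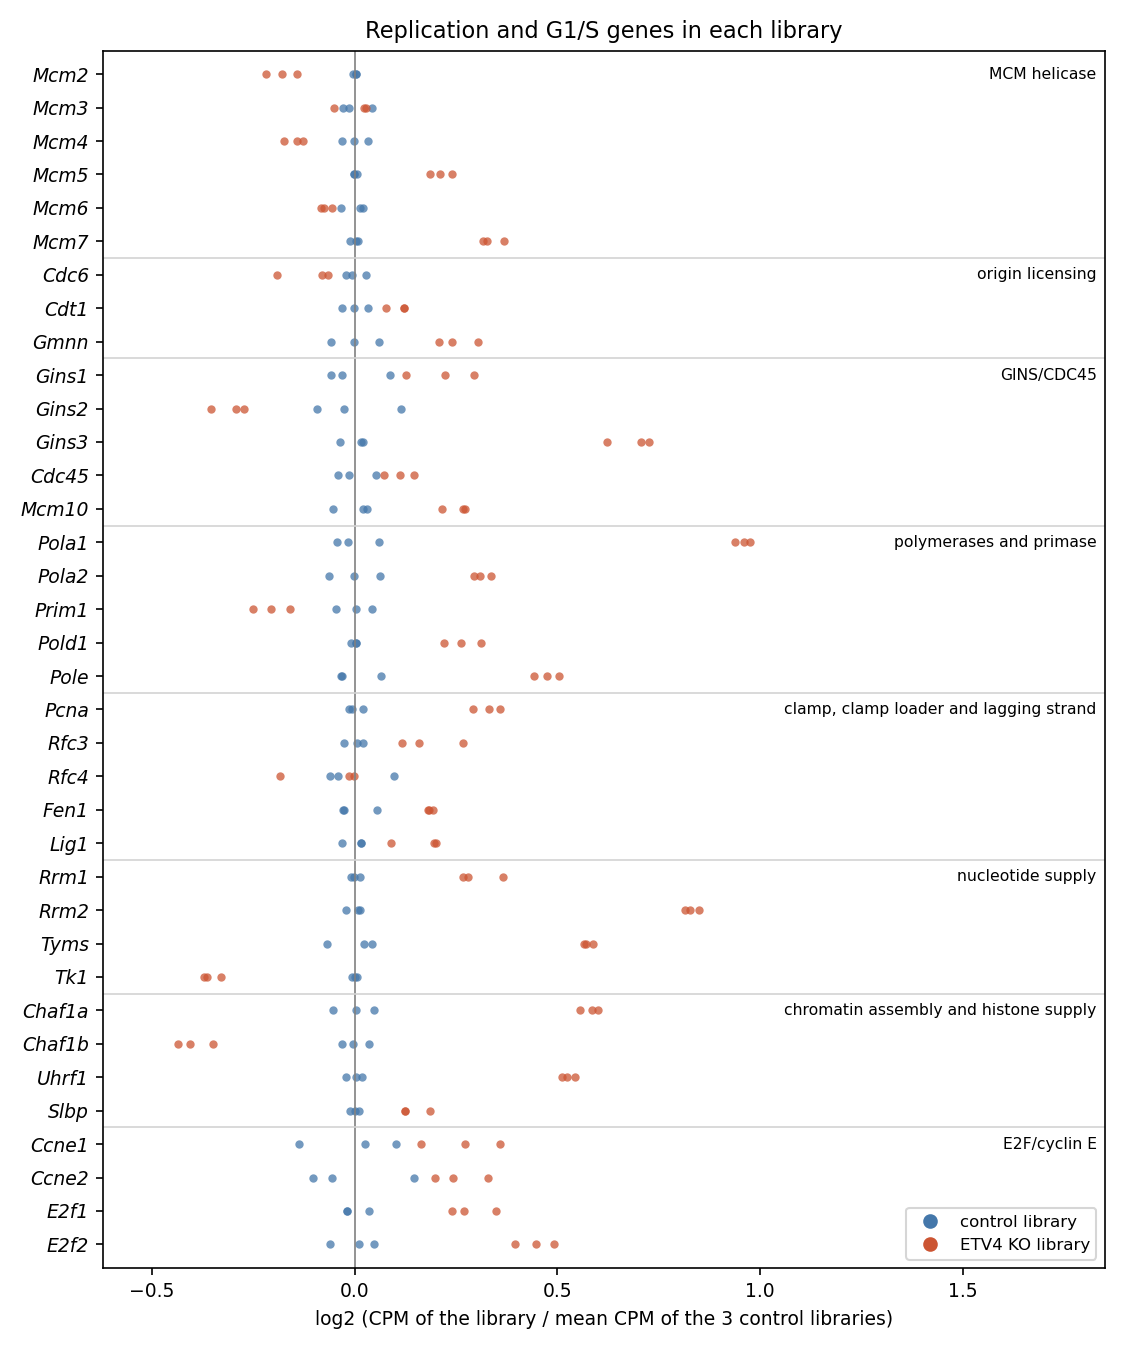
Each point is the level of a gene in 1 library, as the log2 of its CPM over the mean CPM of the 3 control libraries, with control libraries in blue and ETV4 KO libraries in orange; grey lines separate the complexes. For 34 of the 36 genes the groups do not overlap, 26 with ETV4 KO higher and 8 with it lower; Mcm3 and Rfc4 overlap.

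The groups did not overlap for 34 of the 36 genes, where 72.7% of all tested genes also had groups that did not overlap. The 3 libraries of a group lay close together. The coefficient of variation had a median of 2.33% over the genes in the controls and 2.66% in ETV4 KO, and at most 9.51% and 6.75%. The standard errors of the log2 fold changes ran from 0.031 to 0.074, smallest for the abundant genes. The summed level of the 36 genes was 5047 to 5095 CPM in the controls and 5856 to 5964 CPM in ETV4 KO, 16.8% higher.

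The 3 largest rises were in Pola1, Rrm2 and Gins3, each in a different step of replication, and the largest fall was in Chaf1b. Their promoters are shown because these 4 genes set the range of the changes. Each sequence is the 250 bases before the RefSeq start in GRCm38.p6, on the strand of the gene, at chr8:95633309-95633558 (plus strand) for Gins3, chrX:93632156-93632405 (minus strand) for Pola1, chr12:24708004-24708253 (plus strand) for Rrm2 and chr16:93883651-93883900 (plus strand) for Chaf1b. Capitals mark, on either strand, an E2F word (TTTCGCGC, TTTGGCGC, TTTCCCGC or TTTGCCGC), the CCAAT box CCAAT, or the ETS word CCGGAAGT.
Gins3: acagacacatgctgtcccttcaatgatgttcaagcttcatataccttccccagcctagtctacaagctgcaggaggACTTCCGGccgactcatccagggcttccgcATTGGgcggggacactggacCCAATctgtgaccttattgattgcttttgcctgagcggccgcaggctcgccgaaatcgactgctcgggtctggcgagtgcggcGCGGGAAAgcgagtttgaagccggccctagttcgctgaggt
Pola1: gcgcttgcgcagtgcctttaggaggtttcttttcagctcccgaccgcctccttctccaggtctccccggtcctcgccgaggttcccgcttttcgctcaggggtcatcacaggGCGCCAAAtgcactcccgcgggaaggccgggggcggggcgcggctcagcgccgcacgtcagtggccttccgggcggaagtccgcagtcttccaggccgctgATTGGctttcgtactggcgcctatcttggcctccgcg
Rrm2: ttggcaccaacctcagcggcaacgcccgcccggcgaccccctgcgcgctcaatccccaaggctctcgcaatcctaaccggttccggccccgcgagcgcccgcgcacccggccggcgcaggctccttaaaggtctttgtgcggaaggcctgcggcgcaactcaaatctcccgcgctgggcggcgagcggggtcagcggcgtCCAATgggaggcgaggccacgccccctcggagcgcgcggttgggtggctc
Chaf1b: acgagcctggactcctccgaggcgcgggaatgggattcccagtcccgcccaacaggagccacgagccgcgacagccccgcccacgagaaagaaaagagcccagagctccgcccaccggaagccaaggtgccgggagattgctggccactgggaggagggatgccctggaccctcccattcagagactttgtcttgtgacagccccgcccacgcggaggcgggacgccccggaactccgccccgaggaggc
The Gins3 promoter holds an E2F word that begins 41 bases before the start, CCAAT boxes at 144 and 124 bases and an ETS word at 174 bases. Pola1 has an E2F word at 138 bases and a CCAAT box at 37 bases, and Rrm2 has a CCAAT box at 50 bases. None of these words is in the Chaf1b window.

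Promoter entries of RefSeq, reaching from 250 bases before to 50 bases after the start, matched 30 of the 36 genes with 36 promoters. An E2F word was in 13 of these 36 promoters (36.1%) and in 2.26% of all 32851 promoters. A CCAAT box was in 21 of the 36 (58.3%) and in 37.4% of all promoters, and the ETS word in 5 of the 36 (13.9%) and in 3.89% of all. By call, an E2F word was in 10 of the 22 matched genes that rose and in 2 of the 6 that fell. A CCAAT box was in 14 and 3 of them, and the ETS word in 4 and 0. Only 6 of the 8 genes that fell had a promoter entry, and differences between the calls were not tested. The E2F words can overlap each other, as at the Mcm5 promoter, where they begin 153 and 149 bases before the start. These matches describe letters in a window and are not measured sites.

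The MCM helicase, a ring of 6 related subunits that unwinds DNA ahead of the fork, had 2 genes that rose, 3 that fell and 1 that did not pass. With the local medians taken out 4 were called higher and 1 lower, beside 30.5% and 34.2% of all tested genes. Mcm7 rose from 303, 307 and 306 CPM in the controls to 383, 394 and 380 CPM in ETV4 KO, 0.34 on the log2 scale (SE 0.031; adjusted p = 6.94e-11, edgeR). Mcm5 rose from 385, 383 and 383 CPM to 444, 436 and 453 CPM, by 0.21 (SE 0.031). Each ETV4 KO library was above each control library for both genes. With the local medians taken out Mcm7 was at 0.11 and Mcm5 at 0.34, each called higher. Mcm2 fell from 253, 252 and 253 CPM to 217, 229 and 223 CPM, a log2 change of -0.18 ± 0.032 (SE; edgeR, adjusted p = 1.32e-05). For Mcm4 the levels were 200 to 209 CPM in the controls and 181 to 187 CPM in ETV4 KO, a log2 fold change of -0.15. Both falls turned with the local median taken out, Mcm2 to 0.09 and Mcm4 to 0.08, each called higher. Mcm6 had -0.07 (SE 0.031, edgeR adjusted p = 0.0377), and this call was lost when any library except control replicate 2 was left out, with adjusted p-values of 0.058 to 0.129. It was also lost with no filter on low counts, at -0.06 (edgeR adjusted p = 0.101), where 7 of the 36 genes were called lower. Mcm3 did not pass, with means of 272.7 CPM ± 7.49 and 272.7 CPM ± 8.46 (SD, n = 3 each) and overlapping groups. The summed MCM level was 1797 to 1831 CPM in the controls and 1866 to 1900 CPM in ETV4 KO, 4.00% higher.

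The 6 subunits are built into the ring in equal numbers, so their mRNA levels were also compared per kilobase of annotated exons, in CPM per kb. In the controls the order was Mcm5 at 96.1, Mcm6 at 84.5, Mcm3 at 72.7, Mcm7 at 69.0, Mcm4 at 56.9 and Mcm2 at 36.3. ETV4 KO kept Mcm5 first at 111 and Mcm4 and Mcm2 last at 51.4 and 32.1, while Mcm7 at 87.1 lay above Mcm6 at 80.4 and Mcm3 at 72.7. These levels rest on the union of all annotated exons, which may be longer than the transcripts in these cells. Mcm7 shares 7.25% of its exon length with Ap4m1 on the opposite strand, and Ap4m1 had a log2 fold change of -0.20, opposite to that of Mcm7.

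Of the licensing factors Cdt1 and its inhibitor Gmnn (geminin) both rose. Gmnn went from 45.6, 47.6 and 43.9 CPM to 52.8, 56.4 and 54.0 CPM, a log2 ratio of 0.25 (SE 0.046, adjusted p by edgeR = 2.37e-05). Cdt1 went from 154 to 161 CPM in the controls to 166 to 171 CPM in ETV4 KO, by 0.11 (SE 0.034, edgeR adjusted p = 0.00526), a call lost with upper-quartile factors (adjusted p = 0.0582) and with library size alone (0.131). Cdc6, the ATPase that loads the helicase with CDT1, went from 69.5, 70.3 and 72.0 CPM to 61.8, 67.4 and 66.7 CPM, -0.12 on the log2 scale (SE 0.043; adjusted p = 0.0173, edgeR). The lowest of these was ETV4 KO replicate 1, and without it Cdc6 had -0.08 and did not pass (adjusted p = 0.126); it also did not pass without control replicate 3 (adjusted p = 0.0737). With the local medians taken out all 3 were called higher, beside 30.5% of all tested genes. Cdc6 was then at 0.26, Gmnn at 0.24 and Cdt1 at 0.14.

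The GINS complex joins the MCM ring and CDC45 to form the active helicase, and its genes moved apart. Gins3 rose from 27.5, 27.6 and 26.5 CPM in the controls to 45.0, 41.9 and 44.4 CPM in ETV4 KO, a log2 change of 0.69 ± 0.051 (SE; edgeR, adjusted p = 7.32e-13) or 60.8% more. Gins1 rose from 25.6 to 28.3 CPM to 29.1 to 32.7 CPM, by 0.22 (SE 0.058, edgeR adjusted p = 0.00152), and was not called with its local median taken out (0.04). Gins2 fell from 53.0, 61.2 and 55.5 CPM to 44.2, 46.2 and 46.8 CPM, with a log2 ratio of -0.31 (SE 0.050, adjusted p by edgeR = 2.52e-06). The fourth subunit gene, Gins4, is not among the 36 and had -0.20 (SE 0.044, edgeR adjusted p = 0.000184). Within a library the ratio of Gins3 to Gins2 CPM was 0.519, 0.451 and 0.477 in the controls and 1.02, 0.906 and 0.949 in ETV4 KO, a ratio chosen after the values were seen. Gins2 is uncertain, since 67.3% of its annotated exon length overlaps Gse1 on the opposite strand and no source used here says whether reads were counted by strand, although the library kit keeps it; Gse1 had a log2 fold change of -0.27.

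The other helicase activators were modestly higher. With the local medians taken out Mcm10 was at 0.12 and Cdc45 at 0.34. Of the 5 GINS and CDC45 genes, Mcm10 included, 3 were then called higher and 1 lower, beside 30.5% and 34.2% of all tested genes. Mcm10, which helps to switch the helicase on, rose from 54.4, 54.0 and 51.3 CPM to 64.0, 64.3 and 61.8 CPM, by 0.25 (SE 0.043). Cdc45 had 53.8, 54.8 and 57.4 CPM in the controls and 59.8, 58.2 and 61.2 CPM in ETV4 KO, 0.11 on the log2 scale (SE 0.044; adjusted p = 0.0235, edgeR). That gap was narrow: the call was lost with upper-quartile factors (edgeR adjusted p = 0.128) and with library size alone (0.218). It was also lost without control replicate 1 (0.0934), control replicate 2 (0.0733) or ETV4 KO replicate 3 (0.0936). Cdc45 shares 5.96% of its exon length with Ufd1 on the opposite strand, which had a log2 fold change of -0.29, opposite to that of Cdc45.

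**Figure D2:**
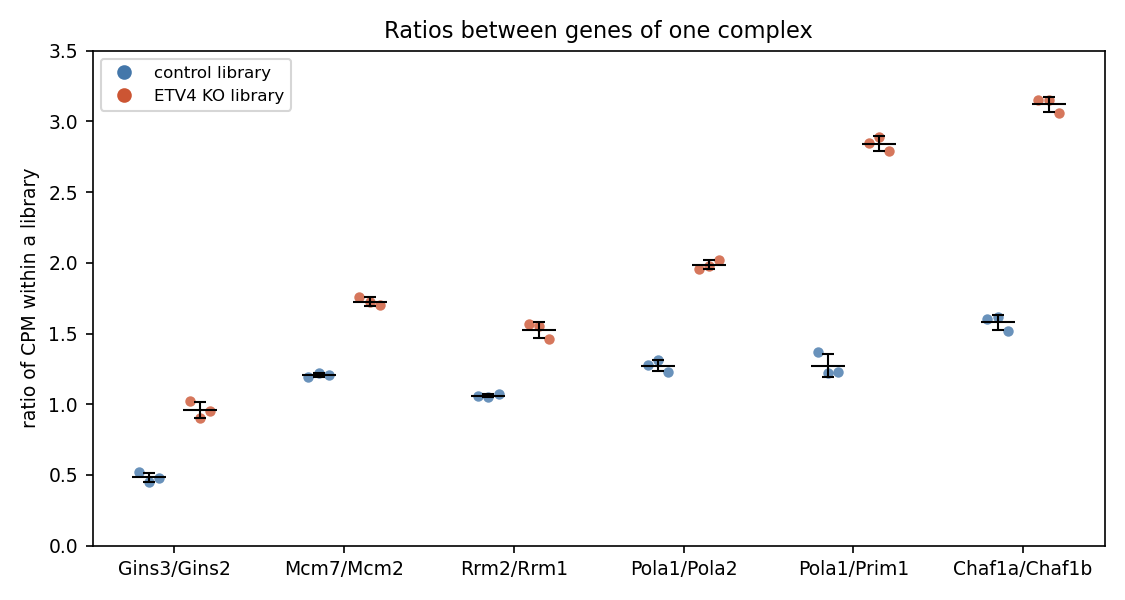
Points are the ratio of 2 genes' CPM within a library, control libraries in blue and ETV4 KO libraries in orange, and black bars are the mean ± SD over the 3 libraries of a group. The 6 ratios were chosen after the values were seen, with the gene of higher fold change on top, so their direction was fixed. Each ETV4 KO library lies above each control library for all 6. Chaf1a/Chaf1b has means of 1.58 and 3.12, and Cdt1/Gmnn, not shown, 3.44 and 3.12. With the local medians taken out Mcm7 and Mcm2 had log2 fold changes of 0.11 and 0.09, and Chaf1a and Chaf1b 0.26 and -0.11.

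The polymerase genes rose, except for the primase subunit Prim1. Pola1, the catalytic subunit of the polymerase alpha-primase that starts each new strand, went from 105, 99.6 and 97.7 CPM to 196, 193 and 198 CPM. Its rise of 0.95 on the log2 scale (SE 0.036; adjusted p = 5.25e-20, edgeR) was the largest of the 36, 93.8% more than in the controls. Its partners in the same 4-subunit enzyme went both ways. Pola2 rose from 75.9 to 82.7 CPM to 97.2 to 100 CPM, by 0.31 (SE 0.039). Prim1 fell from 76.9, 81.8 and 79.5 CPM to 68.8, 66.7 and 71.1 CPM, with -0.21 (SE 0.041, edgeR adjusted p = 5.28e-05). Prim2, the fourth subunit gene and not among the 36, had a log2 change of 0.42 ± 0.049 (SE; edgeR, adjusted p = 9.09e-09). The ratio of Pola1 to Prim1 CPM was 1.22 to 1.37 in the controls and 2.79 to 2.89 in ETV4 KO.

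Of the replicative polymerases, Pole, the catalytic subunit of the leading-strand polymerase epsilon, rose from 107, 100 and 99.8 CPM to 145, 139 and 142 CPM, by 0.48 (SE 0.037, edgeR adjusted p = 1.39e-12). Pold1, the catalytic subunit of polymerase delta on the lagging strand, rose from 118, 118 and 117 CPM to 137, 146 and 141 CPM, by 0.27 (SE 0.036). The summed level of the 5 polymerase and primase genes was 473.2 to 489.4 CPM in the controls and 642 to 650.8 CPM in ETV4 KO. This was 34.9% higher, the largest rise in the sum of any of the 8 groups of genes, and Pola1 gave most of it. With the local medians taken out 4 of the 5 were called higher and 1 lower, beside 30.5% and 34.2% of all tested genes. Pola1 was then at 0.77, Pole at 0.28, Pola2 at 0.22, Pold1 at 0.09 and Prim1 at -0.09.

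Of the 5 clamp and lagging-strand genes 4 rose, where 35.0% of all tested genes did. The rises were 12.1% to 25.5%. Only Lig1, at 0.13, was still called with the local medians taken out (Pcna 0.06, Fen1 0.002, Rfc3 -0.05). Pcna, the sliding clamp and the gene with the highest CPM of the 36, rose from 442, 453 and 444 CPM to 546, 572 and 561 CPM, by 0.33 (SE 0.031, edgeR adjusted p = 1.15e-10). Its pseudogene Pcna-ps2 had 12 to 30 counts per library, so few Pcna reads were counted there. Fen1, the nuclease that trims Okazaki fragments, had 81.3 to 86.2 CPM in the controls and 94.1 to 94.8 CPM in ETV4 KO, and Lig1, the ligase that seals them, had 205 to 212 and 223 to 241 CPM, log2 fold changes of 0.18 and 0.16. The clamp loader gene Rfc3 had 56.4, 58.3 and 57.7 CPM against 62.3, 69.1 and 64.1 CPM, a log2 ratio of 0.18 (SE 0.044, adjusted p by edgeR = 0.000658). Rfc4, another clamp loader subunit, did not pass, with -0.07 (SE 0.064, edgeR adjusted p = 0.357) and overlapping groups. Its value ran from -0.10 without control replicate 1 to -0.01 without control replicate 2 or ETV4 KO replicate 3. Fen1 shares 78.8% of its exon length with the antisense gene Gm10143, which is not among the symbols of the count table. It shares 5.37% with Tmem258 on the opposite strand, which had a log2 fold change of -0.04. Rfc4 shares 12.7% with Eif4a2, which had -0.39. Fen1 and Rfc4 are uncertain because of these overlaps.

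Of the 4 genes of nucleotide supply 3 rose and Tk1 fell, where 35.0% of all tested genes rose and 36% fell. With the local medians taken out 3 were called higher and 0 lower, Tk1 among the higher, beside 30.5% and 34.2%. Rrm2, the subunit of ribonucleotide reductase whose level varies over the cell cycle, rose from 213, 208 and 212 CPM to 380, 371 and 374 CPM, 0.83 on the log2 scale (SE 0.032; adjusted p = 5.59e-20, edgeR) or 77.6% more. Rrm1, the large subunit of the same enzyme, rose from 198 to 201 CPM to 240 to 257 CPM, by 0.31 (SE 0.034), and was not called with its local median taken out (0.05). The ratio of Rrm2 to Rrm1 CPM was 1.05 to 1.07 in the controls and 1.46 to 1.57 in ETV4 KO. Tyms, which makes thymidylate from deoxyuridylate, rose from 50, 53.2 and 54.0 CPM to 77.8, 77.6 and 78.8 CPM, by 0.57 (SE 0.042, edgeR adjusted p = 4.13e-13). Tk1, the thymidine kinase of the salvage route to thymidylate, fell from 219, 220 and 221 CPM to 171, 175 and 170 CPM, with a log2 change of -0.36 ± 0.032 (SE; edgeR, adjusted p = 5.32e-11). The direction of Tk1 turned with its local median taken out, at 0.14 (edgeR adjusted p = 0.000507), when Tyms was at 0.31. As measured, the ratio of Tyms to Tk1 CPM went from 0.228 to 0.244 in the controls to 0.443 to 0.462 in ETV4 KO. Tk1 shares 1.60% of its exon length with Afmid on the opposite strand, which had -0.82. The mean level of Afmid was only 7.54 CPM in the controls and 4.30 CPM in ETV4 KO.

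The subunits of chromatin assembly factor 1, which places histones on new DNA, also moved apart. Of the 4 chromatin and histone genes 3 rose and 1 fell, where 35.0% of all tested genes rose and 36% fell. With the local medians taken out 2 were called higher and 2 lower, beside 30.5% and 34.2%. Chaf1a rose from 133, 129 and 124 CPM to 189, 193 and 195 CPM, by 0.58 (SE 0.035, edgeR adjusted p = 5.20e-15). Chaf1b fell from 83.3, 79.5 and 81.1 CPM to 60.1, 61.3 and 63.8 CPM, with -0.40 (SE 0.041, edgeR adjusted p = 6.36e-10). The ratio of Chaf1a to Chaf1b CPM was 1.52 to 1.62 in the controls and 3.06 to 3.15 in ETV4 KO. Chaf1a shares 52.5% of its exon length with Ubxn6 on the opposite strand, which had a log2 fold change of 0.29, so its value is uncertain. Uhrf1, which brings the maintenance DNA methyltransferase to replicated DNA, rose from 301 to 309 CPM to 435 to 445 CPM, by 0.53 (SE 0.031). Its value was 0.20 with its local median taken out. Slbp, which binds the end of histone mRNAs, had 124, 123 and 125 CPM against 135, 141 and 135 CPM, a log2 ratio of 0.14 (SE 0.035, adjusted p by edgeR = 0.000705), and turned to -0.13 with its local median taken out.

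All 4 genes of the E2F and cyclin E group rose, where 35.0% of all tested genes did. The rises were 0.26 to 0.44 on the log2 scale. With the local medians taken out 3 of the 4 were called higher, beside 30.5% of all tested genes, Ccne1 being the exception (0.13). E2f1, an activator of S-phase genes, went from 86.9, 90.2 and 86.9 CPM to 104, 112 and 106 CPM, by 0.29 (SE 0.038, edgeR adjusted p = 1.07e-07). E2f2, another activator E2F, went from 18.0, 19.4 and 18.9 CPM to 24.7, 25.6 and 26.4 CPM, by 0.44 (SE 0.061). The cyclins E activate CDK2 at the G1/S boundary. Ccne1 had 15.8, 13.4 and 15 CPM in the controls and 17.8, 16.5 and 18.9 CPM in ETV4 KO, 0.27 on the log2 scale (SE 0.074; adjusted p = 0.00184, edgeR), and Ccne2 had 20.6 to 24.5 and 25.4 to 27.8 CPM, a log2 fold change of 0.26 (SE 0.065). The groups were separate but close for both cyclins, the least abundant of the group together with E2f2. Ccne2 shares 17.4% of its exon length with Ints8 on the opposite strand.

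The fold changes of these genes moved with those of their neighbours on the chromosome. Chromosomes differed in the median log2 fold change of their expressed genes, from -0.38 on chromosome 11 to 0.37 on chromosome 17. The local median of a gene, taken over the other expressed genes in its 10 Mb bin or, where the bin held fewer than 10, over its chromosome, ran from -0.49 to 0.32 for the 36. Of the 8 genes that fell 7 had a local median below 0, the exception being Mcm6 at 0.02. Of the 26 that rose 20 had a local median above 0. Over the 36 genes, which share the libraries and in part their bins, Pearson's r between fold change and local median was 0.65.

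With the local median entered as an offset, 23 of the 36 genes were higher, 5 lower and 8 not called, where 64.8% of all tested genes were called, 30.5% as higher and 34.2% as lower. The median log2 fold change of the 36 was then 0.12, and that of all tested genes was -0.02. The standard errors of this fit take the local median as known. Of the 26 rises 19 were called in both fits, among them Gins3 at 0.77, Pola1 at 0.77, Rrm2 at 0.69, E2f2 at 0.57 and Tyms at 0.31. Pcna, Rrm1, Gins1, Fen1, Rfc3 and Ccne1 were no longer called, and Slbp turned from higher to lower (adjusted p = 0.0018 by edgeR).

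Of the 8 falls 4 turned to rises with the local median taken out. Tk1 lies on chromosome 11 (117815526 to 117826092 in mm10), where its local median was -0.49. Cdc6 lies on the same chromosome, with a local median of -0.37, Mcm2 on chromosome 6, with -0.27, and Mcm4 on chromosome 16, with -0.23. The 4 genes called lower in both fits were Gins2 at -0.28, Chaf1b at -0.11, Prim1 at -0.09 and Mcm6 at -0.09. Gins2 and Gins3 both lie on chromosome 8, with local medians of -0.03 and -0.08, so the opposite directions of this pair held in both fits. Chaf1a on chromosome 17 and Chaf1b on chromosome 16 had local medians of 0.32 and -0.29, and with these taken out they were at 0.26 and -0.11.

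**Figure D3:**
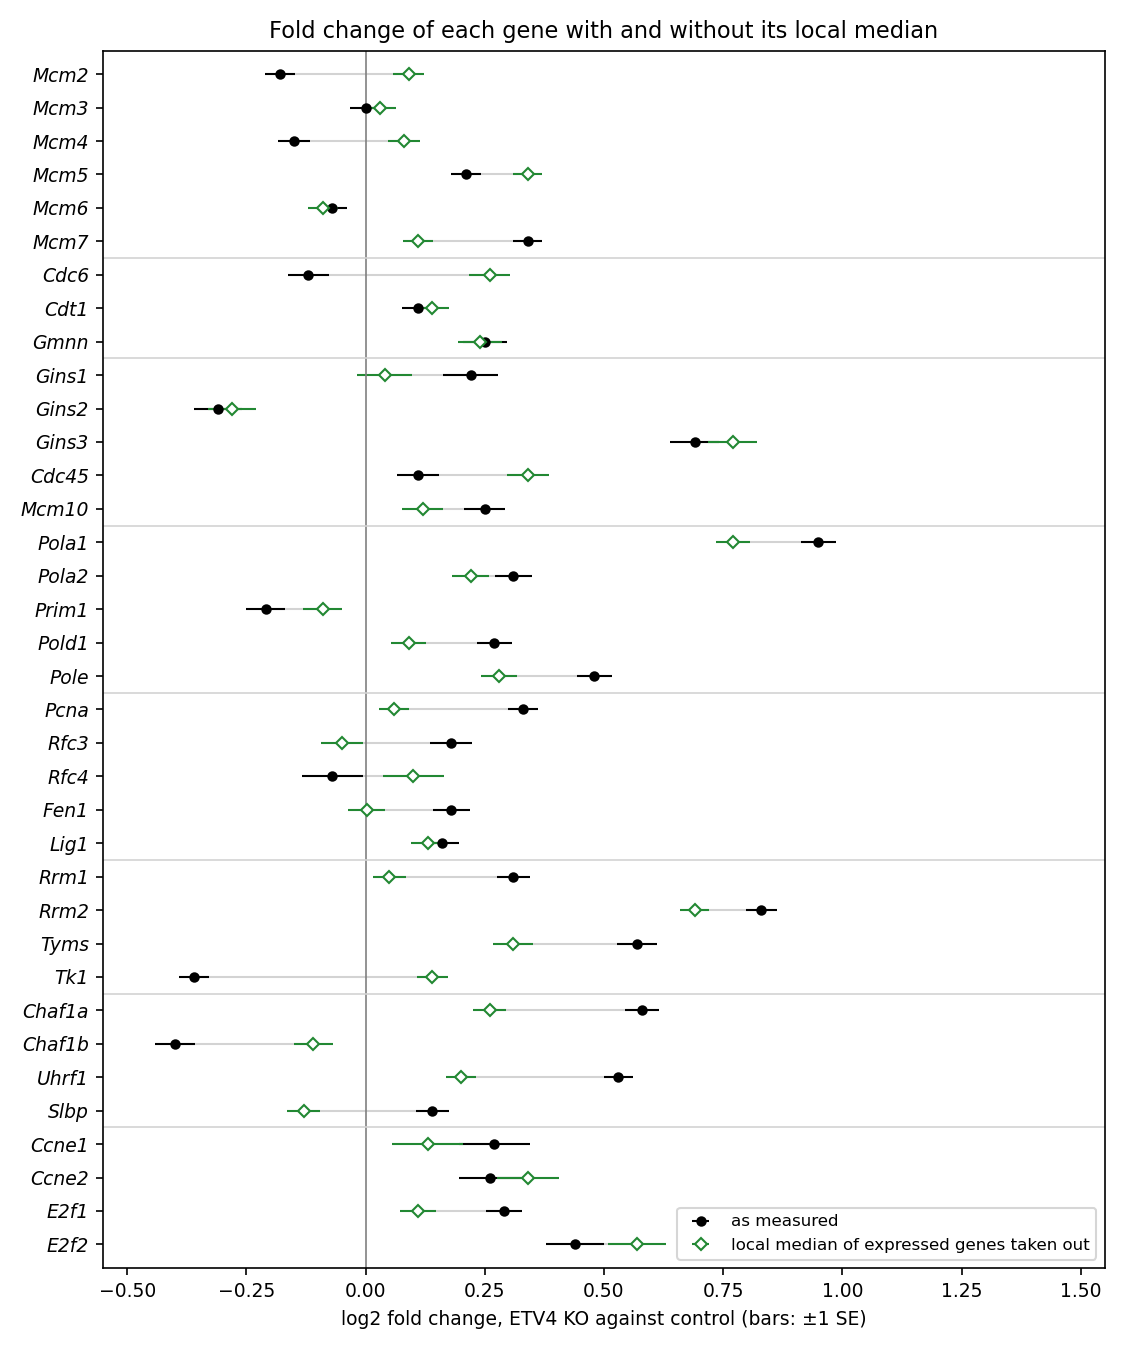
The x axis is the log2 fold change of each gene, ETV4 KO against control, as measured (black circles) and with the median of its chromosomal neighbourhood taken out (open green diamonds), with bars of ±1 SE over 3 libraries per group. Tk1 moves from -0.36 to 0.14 and Pcna from 0.33 to 0.06, whereas Gins3, Pola1 and Rrm2 stay above 0.6.

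Other genes of replication, were taken from a list of 41 that does not contain the 36. Of these 18 rose, 10 fell and 13 did not pass, with a median log2 fold change of 0.04, where 71.1% of all tested genes were called; this count is near that background. With the local medians taken out 17 were higher and 9 lower, where 30.5% of all tested genes were higher and 34.2% lower. Dbf4 and Cdc7, the regulatory and catalytic subunits of the kinase that triggers the MCM helicase, rose by 0.62 (SE 0.035) and 0.53 (SE 0.045). Pold4, a small subunit of polymerase delta, rose by 0.67 (SE 0.042). With the local medians taken out Dbf4 had 0.44, Cdc7 0.24 and Pold4 0.57. Rpa1, a subunit of the single-strand binding protein, fell from 223 to 233 CPM to 175 to 185 CPM, with -0.35 (SE 0.034), and had 0.06 with its local median taken out, which was not called. Of 29 tested genes listed as G1/S regulators 17 rose and 7 fell, with a median of 0.18, beside 35.0% and 36% of all tested genes. With the local medians taken out 14 were higher and 6 lower, beside 30.5% and 34.2%. Ccnd2, a D-type cyclin, rose by 0.86 from 11.2 to 12.0 CPM to 19.8 to 22.3 CPM. Lin54, a subunit of the DREAM complex that binds cell cycle promoters, rose by 0.79, and Myc by 0.45. Cdkn1b, which encodes the CDK inhibitor p27, fell from 184 to 185 CPM to 139 to 145 CPM, with -0.36 (SE 0.034, edgeR adjusted p = 7.29e-11). With the local medians taken out Ccnd2 had 1.04, Lin54 0.50, Myc 0.15 and Cdkn1b -0.32. Rb1, Cdk2 and the other CDK inhibitor genes are named after their values were seen. Rb1, which encodes the retinoblastoma protein, rose by 0.85 (SE 0.082), and Cdk2 fell, with -0.35 (SE 0.039). With the local medians taken out they had 0.79 and -0.24. Cdkn2d, Cdkn2c and Cdkn1a rose, by 0.41 (SE 0.050), 0.18 (SE 0.036) and 0.10 (SE 0.044), and Cdkn1a turned to -0.26 with its local median taken out. Cdkn2a and Cdkn2b had 0 counts in all 6 libraries, and Cdkn1c did not pass the filter on low counts.

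Genes of G2 and mitosis were set beside the 36 as a second phase of the cycle. Of 20 tested, 14 rose and 3 fell, with a median log2 fold change of 0.27, beside 35.0% and 36% of all tested genes. With the local medians taken out 18 were higher and 1 lower, beside 30.5% and 34.2%. Mki67, the proliferation marker Ki-67, had 500, 473 and 461 CPM in the controls and 860, 724 and 818 CPM in ETV4 KO, by 0.74 (SE 0.042). The spindle assembly gene Tpx2 and the transcription factor gene Foxm1 rose by 0.42 and 0.43, and the mitotic cyclin gene Ccnb2 fell, with -0.27. With the local medians taken out Mki67 had 0.58, Tpx2 0.25, Foxm1 0.61 and Ccnb2 -0.16.

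**Figure D4:**
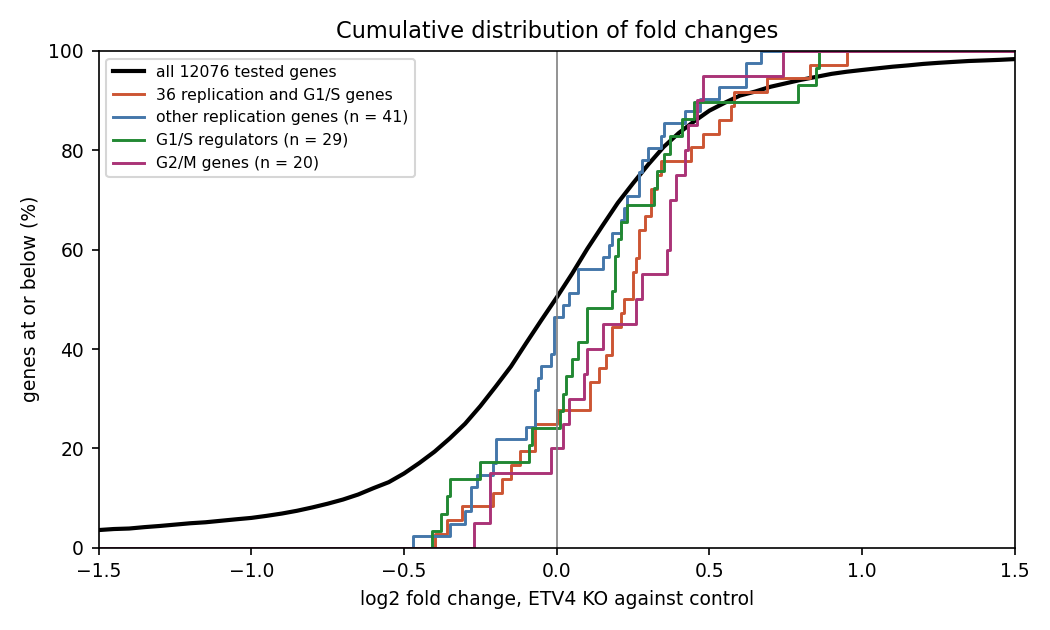
Curves give the percent of genes (y axis) at or below each log2 fold change, ETV4 KO against control (x axis), for all tested genes (black) and for the 36 replication and G1/S genes and 3 other lists. The curve of the 36 genes crosses 50% near 0.23, to the right of all tested genes, and runs from -0.40 to 0.95.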

How the data were processed

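The members and lists were chosen with earlier results of these data known. The deposited table holds whole-number read counts for each gene symbol in the 6 libraries, without normalization, as its values show. Per the submitters' processing notes the tools were STAR 2.7.9a, featureCounts, FastQC 0.11.9 and R 4.1.1, and the builds hg38 and mm10; annotation, strand and multi-mapping settings are not stated there. Overlapping or near-identical genes are therefore uncertain. Columns were matched to samples by library name and grouped by title.

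Counts were analysed with edgeR 4.0.16 in R 4.3.3: filterByExpr (minimum count 10, minimum total 15), TMM scaling, glmQLFit and glmQLFTest with group as the only term, and Benjamini-Hochberg adjustment over 12076 genes. SE is the absolute log2 fold change over the square root of F. CPM is TMM-scaled. Positions and exon lengths came from GENCODE M21 (mm10), and promoters from RefSeq (GRCm38.p6). Local medians used genes above a log2 CPM of 3. All 36 members were named. Of each other list 4 called genes at most were named by smallest adjusted p: 3 of the commoner direction and 1 of the rarer. Gins4, Prim2, Rb1, Cdk2, the overlapping genes and the CDK inhibitors other than Cdkn1b were named after their values were seen. Alternatives were other scaling, filters, thresholds, DESeq2 1.42.0, limma-voom 3.58.1, a replicate block, leaving out each library and local medians. The steps were tested on simulated data.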

Additional observations from a re-analysis of the deposited data

How the results depend on the processing

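In all 17 alternatives were run. Counts over all genes were 4232 higher and 4350 lower, and 735 and 949 when tested against a 1.5-fold change by glmTreat; the counts of the 36 genes were 26 and 8, and 2 and 0 by glmTreat, which asks for a larger change. With the 10 Mb bin medians taken out 5 were lower, and Mcm2 (0.09), Mcm4 (0.08), Cdc6 (0.26), Rfc3 (-0.05), Rfc4 (0.10), Tk1 (0.14), Slbp (-0.13) and Rpa1 (0.06) changed sign. The median log2 fold change of the 36, 0.23, was 0.12 under that setting, 0.19 with upper-quartile factors, 0.18 with library size only, 0.24 with no low-count filter, and 0.21 to 0.24 with each library left out in turn. Mcm3, at 0.0002 and never called, had -0.04 with upper-quartile factors, -0.05 with library size only, -0.01 with the CPM filter, -3e-05 with limma-voom and -0.02 to 0.03 with a library left out (-0.02 without control replicate 2, and -0.01 without control replicate 3, ETV4 KO replicate 2 or ETV4 KO replicate 3). With the replicate block 26 of the 36 were higher and 8 lower, as without it, over all genes 4378 and 4504, and Mcm3 had -1e-05. The labels do not say whether the numbers pair the samples, and correlations over 3 libraries per group cannot decide it. Deviations of same-numbered libraries correlated at 0.071, 0.0705 and 0.0186. Those of differently numbered libraries correlated at -0.0863 to 0.0199, the highest being ETV4 KO replicate 3 with control replicate 1. DESeq2, RLE factors and limma-voom gave 26 higher and 8 lower as well. Depth limits the least abundant members: Ccne1 had the largest SE, 0.074.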
